A study of Homo sapiens with 10 samples.

Results

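HSPA5 and 9 partner genes were followed in ARPE-19 cells, an established human line of retinal pigment epithelial (RPE) cells, cultured for 48 h in control medium or in high glucose medium. The 10 genes encode chaperones and co-chaperones that work in the lumen of the endoplasmic reticulum (ER): HSPA5, HSP90B1, HYOU1, DNAJB11, DNAJB9, DNAJC3, SDF2L1, CRELD2, MANF and SIL1. They were chosen as the rows of the deposited read-count table that carry these symbols, 10 of 22626 rows, and all 10 were among the 14936 rows that passed the filter on low counts and were tested. The control group (MG, n = 5) was kept in 5.5 mM glucose with 32 mM mannitol, a sugar alcohol that balances the osmotic pressure, and the high glucose group (HG, n = 5) in 37.5 mM glucose without mannitol, so that more glucose and absence of mannitol cannot be told apart. RNA was sequenced once per library, and the labels do not state whether the 5 libraries of a group came from separate cultures, so the errors and p-values given here describe the spread between these libraries, which may be technical. Control libraries carry numbers (MG_1 to MG_5), while the high glucose libraries are named by their deposited column (HG_1 to HG_5), since only their group could be read from the labels. The members were selected on the count comparison of the HG group with the control group, which was known when the list was drawn up. The levels of its members in the groups are therefore a description, their calls carry no weight as a test, and no p-value is printed for them.

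Proteins that enter the secretory pathway fold in the ER lumen. HSPA5, also called BiP or GRP78, is the Hsp70 chaperone of this compartment and binds unfolded chains in cycles of ATP binding and hydrolysis, which J-domain proteins speed up and nucleotide exchange factors reset. HSPA5 also binds the stress sensors of the unfolded protein response, and many luminal chaperones are targets of this response through ATF6 and XBP1. RPE cells secrete and recycle large amounts of protein in their care for photoreceptors, which loads this machinery.

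Promoters of several members carry a stress element that these factors are known to use, and the sequences are shown here as a description. Since many luminal chaperones are known targets of this response, an element in their promoters is no independent result. An exact ER stress response element (ERSE, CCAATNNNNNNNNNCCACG) is a CCAAT box, bound by NF-Y, set apart by a spacer from a CCACG block, bound by ATF6. ERSE-II holds the same pair at close distance: ATTGG, the CCAAT box of the other strand, then 1 free base, then CCACG. Searched on both strands of 34796 distinct RefSeq promoters (250 bases before to 50 bases after the start, GRCh38.p14), ERSE was found in 0.0776% and ERSE-II in 0.0546%. HSPA5, HSP90B1 and CRELD2 held ERSE, HYOU1 and SDF2L1 held ERSE-II, and DNAJB11, DNAJB9, DNAJC3, MANF and SIL1 held neither as an exact match. Each match is written here in the direction of the motif, with the bases the motif fixes in capitals.
HSPA5 ERSE, chr9:125241391-125241409, minus strand: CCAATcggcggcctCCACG
HSP90B1 ERSE farther from the start, chr12:103930216-103930234, plus strand: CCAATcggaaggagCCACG
HSP90B1 ERSE nearer to the start, chr12:103930321-103930339, minus strand: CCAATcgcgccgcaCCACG
CRELD2 ERSE, chr22:49918554-49918572, minus strand: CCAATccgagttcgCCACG
HYOU1 ERSE-II farther from the start, chr11:119057380-119057390, plus strand: ATTGGaCCACG
HYOU1 ERSE-II nearer to the start, chr11:119057274-119057284, plus strand: ATTGGaCCACG
SDF2L1 ERSE-II, chr22:21642114-21642124, minus strand: ATTGGtCCACG
Both copies in HYOU1 are the same 11 bases, and SDF2L1 differs from them at the free position of the motif. Among the 4 ERSE matches, the spacers were all different.

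The stretches around the elements are given for 4 of these promoters, and for DNAJC3 as a promoter without an exact element. All are written in the direction of transcription, upstream of the RefSeq start and free of GENCODE 29 exons, with capitals for the fixed bases of ERSE and ERSE-II. The regions are chr9:125241344-125241593 on the minus strand for HSPA5, chr11:119057206-119057455 on the minus strand for HYOU1, chr22:21642052-21642260 on the plus strand for SDF2L1, chr22:49918459-49918633 on the plus strand for CRELD2 and chr13:95676926-95677138 on the plus strand for DNAJC3.
HSPA5: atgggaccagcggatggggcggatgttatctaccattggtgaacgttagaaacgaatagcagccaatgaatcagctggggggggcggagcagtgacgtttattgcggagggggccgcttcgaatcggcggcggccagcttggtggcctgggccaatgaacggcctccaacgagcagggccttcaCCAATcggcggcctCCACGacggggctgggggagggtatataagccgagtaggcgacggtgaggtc
HYOU1: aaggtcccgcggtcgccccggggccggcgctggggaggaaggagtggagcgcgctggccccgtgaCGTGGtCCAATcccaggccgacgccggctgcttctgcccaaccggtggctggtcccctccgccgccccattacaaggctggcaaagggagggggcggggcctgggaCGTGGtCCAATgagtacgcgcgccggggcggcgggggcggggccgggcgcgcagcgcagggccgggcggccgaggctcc
SDF2L1: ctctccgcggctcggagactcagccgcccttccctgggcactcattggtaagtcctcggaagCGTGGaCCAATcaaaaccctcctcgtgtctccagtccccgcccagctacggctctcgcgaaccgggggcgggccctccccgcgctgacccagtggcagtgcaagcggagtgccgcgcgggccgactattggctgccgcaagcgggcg
CRELD2: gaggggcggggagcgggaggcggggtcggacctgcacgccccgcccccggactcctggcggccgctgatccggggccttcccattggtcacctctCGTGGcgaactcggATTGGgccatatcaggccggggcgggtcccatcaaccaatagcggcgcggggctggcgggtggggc
DNAJC3: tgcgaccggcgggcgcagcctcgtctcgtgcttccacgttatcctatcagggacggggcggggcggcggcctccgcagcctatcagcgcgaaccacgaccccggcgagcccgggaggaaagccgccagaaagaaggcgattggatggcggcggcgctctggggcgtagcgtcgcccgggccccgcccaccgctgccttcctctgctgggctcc
Counted from 0 at the first transcribed base, the exact ERSE match of HSPA5 covered positions -66 to -48, that of CRELD2 -80 to -62, and those of HSP90B1 -194 to -176 and -89 to -71. Inexact copies were not searched for, so a promoter may hold more elements than are marked. These positions hold for the RefSeq start. GENCODE 29 begins HSP90B1 and CRELD2 farther upstream, so that their elements lie inside the annotated genes, and its exons cover the whole windows before the start of HSP90B1, DNAJB11 and DNAJB9 and nearly all of that of MANF. The ERSE-II matches lay at -185 to -175 and -79 to -69 in HYOU1 and at -188 to -178 in SDF2L1. HYOU1 also held the XBP1-type element UPRE (TGACGTGG) at -188 to -181, which overlaps its upstream ERSE-II and was found in 0.733% of all promoters. CCAAT boxes alone were common: every member had at least 1, HSPA5 and HSP90B1 had 5 each, and 34.6% of all promoters had one. CCACG alone was found in 38.0% of all promoters. The composite element read by ATF4 (TGATGNAA), present in 3.63% of promoters, was in 0 of the 10 windows. A match is a description of the letters and not a bound site.

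**Figure D1:**
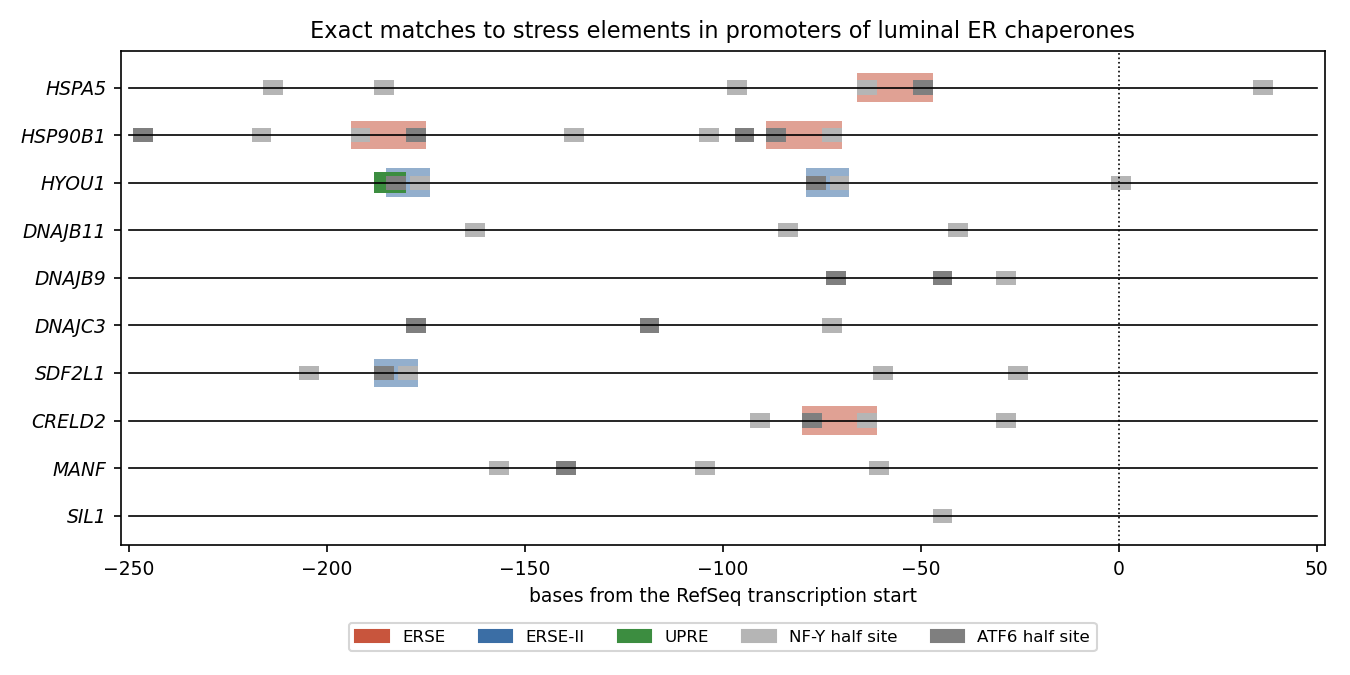
Exact motif matches in the promoters of the 10 genes, with the distance from the RefSeq transcription start in bases on the x axis and 1 line per gene; red boxes are ERSE, blue ERSE-II, green UPRE, and the small light and dark grey boxes the CCAAT boxes (NF-Y) and CCACG blocks (ATF6). ERSE or ERSE-II lies in HSPA5, HSP90B1, HYOU1, SDF2L1 and CRELD2, and every line has at least 1 CCAAT box.

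In the control group the members spanned a wide range of levels, compared here as FPKM, fragments per kilobase of transcript and unit of library size, which allow genes of different length to be set side by side. HSP90B1, also called GRP94 and the Hsp90 of the ER, had the highest level at 379.9 ± 31.4 FPKM (SD, n = 5), followed by HSPA5 at 223.4 ± 9.83 and MANF at 75.4 ± 5.13. DNAJB11 was at 36.9 ± 1.65 FPKM, and SIL1, HYOU1 and CRELD2 followed at 26.4 ± 2.75, 25.6 ± 1.65 and 21.5 ± 2.09. SDF2L1 at 13.1 ± 1.40, DNAJC3 at 10.5 ± 1.16 and DNAJB9 at 10.3 ± 0.391 FPKM were lowest. The control libraries did not overlap between neighbours in this order, except between SIL1 and HYOU1, HYOU1 and CRELD2, SDF2L1 and DNAJC3, and DNAJC3 and DNAJB9. In the HG group the first 3 places were the same, SIL1 came before DNAJB11, HYOU1 moved behind CRELD2, and DNAJC3 had the lowest mean. HSPA5 and HSP90B1 together made up 82.7 ± 1.29% of the counts of the 10 genes in the control group and 80.5 ± 1.03% in the HG group, with overlapping libraries. The 10 genes together held 0.258 ± 0.0143% of all counts in the control group and 0.180 ± 0.00973% in the HG group, without overlap.

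Of the 10 members, 6 were lower in the HG group with an adjusted p under 0.05 in edgeR's quasi-likelihood test, 0 were higher and 4 were not called. Over all tested rows, 7.8% were called lower, 7.62% higher and 15.4% in either direction, and nothing is read from the difference, since the same comparison had been seen when the list was made. The median log2 fold change was -0.41 over the members and 0.00132 over all rows. The same 6 genes had control and HG libraries that did not overlap, which held in this direction for 6.91% of all rows and in the other direction for 6.74%. In bulk RNA, fewer transcripts per cell and a change in which cells were collected cannot be told apart.

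HSPA5 (chr9:125234853-125241330, minus strand, 8 exons in GENCODE 29 on GRCh38) differed most. From MG_1 to MG_5 it was at 997.5, 908.4, 929.8, 953.4 and 954.2 CPM (counts scaled to a library size common to all libraries), and from HG_1 to HG_5 at 563.5, 585.6, 608.3, 531.8 and 567.0 CPM. The lowest control library stood well above the highest HG library, and the libraries of a group lay close together. The mean fell from 948.6 ± 33.2 to 571.2 ± 28.4 CPM, a fold of 0.602, with a log2 fold change of -0.73 (95% interval -0.83 to -0.63). The library with the fewest reads of HSPA5, HG_4, still held 17496.

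HSP90B1 (chr12:103930107-103953645, plus strand, 18 exons) folds a narrower set of clients, among them integrins and Toll-like receptors. It was at 1302.1, 1049.3, 1187.9, 1218.5 and 1214.4 CPM in MG_1 to MG_5 and at 795.4, 893.3, 930.5, 907.4 and 820.8 CPM in HG_1 to HG_5. The groups did not overlap, and MG_2 and HG_1 were the lowest library of their group. The log2 fold change was -0.46 (95% interval -0.60 to -0.31), a fold of 0.728. In FPKM, 169.8 ± 7.23 HSP90B1 stood against 100 of HSPA5 in the control group and 208.1 ± 19.2 in the HG group, without overlap. HSP90B1 was thus higher relative to HSPA5, while both were lower in CPM.

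HYOU1 (chr11:119044189-119057202, minus strand, 26 exons), also called GRP170, and SIL1 (chr5:138946720-139293557, minus strand, 10 exons) are the nucleotide exchange factors of HSPA5. HYOU1 was at 134.8, 128.9, 109.4, 126.7 and 100.1 CPM in MG_1 to MG_5 and at 79.8, 77.6, 80.4, 73.5 and 77.8 CPM in HG_1 to HG_5. In CPM the control libraries of HYOU1 were scattered and its HG libraries tight, with a log2 fold change of -0.62 (95% interval -0.80 to -0.45) and a fold of 0.649. In FPKM its control libraries lay closer together, at 27.8, 25.7, 25.3, 26.2 and 23.3 from MG_1 to MG_5. The cause of this difference between CPM and FPKM was not tested. SIL1 was at 47.2, 63.9, 51.6, 52.2 and 51.1 CPM in the control libraries and at 61.6, 53.3, 52.5, 46.5 and 51.1 CPM in the HG libraries. The SIL1 groups lay over each other, with a log2 fold change of -0.0045 and an interval from -0.21 to 0.20. The exchange factors therefore stood in another proportion: 98.0 ± 12.9 HYOU1 per 100 SIL1 in FPKM in the control group and 61.3 ± 4.88 in the HG group, without overlap. Against HSPA5 itself, HYOU1 was at 11.5 ± 0.761 and 12.0 ± 0.335 per 100 FPKM with overlapping libraries. SIL1 went from 11.9 ± 1.79 to 19.6 ± 1.94 per 100 of HSPA5 without overlap.

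DNAJB11 (chr3:186567403-186585800, plus strand, 11 exons), DNAJB9 (chr7:108569568-108574850, plus strand, 3 exons) and DNAJC3 (chr13:95677139-95794989, plus strand, 12 exons) are J-domain partners of HSPA5, known as ERdj3, ERdj4 and P58IPK. DNAJB11, which binds clients itself and hands them to HSPA5, was at 71.2, 66.2, 64.0, 64.2 and 64.3 CPM in MG_1 to MG_5 and at 46.0, 46.3, 44.0, 44.7 and 46.3 CPM in HG_1 to HG_5. Both groups were tight and apart, with a log2 fold change of -0.54 (95% interval -0.64 to -0.44) and a fold of 0.689. DNAJC3 was at 72.4, 54.5, 63.9, 61.8 and 65.6 CPM in the control libraries and at 42.1, 52.5, 53.6, 52.8 and 47.2 CPM in the HG libraries. Its groups were apart by a small gap, between 53.6 and 54.5 CPM, with a log2 fold change of -0.36 (95% interval -0.55 to -0.17). With limma on log2(FPKM + 1) the log2 fold change was -0.31 and DNAJC3 was not called.

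DNAJB9, which serves the IRE1 sensor and the degradation of misfolded chains, had a fitted value above that of the control group. It was at 28.0, 25.9, 26.5, 27.0 and 27.0 CPM in the control libraries and at 28.0, 34.2, 31.5, 26.4 and 27.8 CPM in the HG libraries, where HG_2 and HG_3 were highest. The groups overlapped, and the log2 fold change of 0.14 had an interval from -0.02 to 0.30. Per 100 FPKM of HSPA5, DNAJB9 was at 4.61 ± 0.0297 in the control group, within 4.57 and 4.64 in all 5 libraries. In the HG group it was at 8.41 ± 0.639, from 7.97 to 9.51. DNAJC3 went from 4.70 ± 0.335 to 6.10 ± 0.631 per 100 of HSPA5 without overlap, while DNAJB11 was at 16.5 ± 0.614 and 18.8 ± 1.11 with overlapping libraries. Because HSPA5 itself was lower, each ratio moves also where the partner does not.

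SDF2L1, CRELD2 and MANF are small soluble proteins of the ER lumen. SDF2L1 (chr22:21642261-21644298, plus strand, 3 exons) forms a complex with DNAJB11. It was at 10.6, 13.9, 11.5, 12.0 and 10.4 CPM in MG_1 to MG_5 and at 12.0, 7.59, 9.38, 6.87 and 9.21 CPM in HG_1 to HG_5. The groups overlapped through HG_1 alone, with a log2 fold change of -0.38 (95% interval -0.70 to -0.05) and no call. SDF2L1 was called lower in 3 of 10 other settings of the analysis and also without HG_1. It was at 35.5 ± 4.60 per 100 FPKM of DNAJB11 in the control group and at 39.8 ± 8.44 in the HG group, with overlap.

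CRELD2 (chr22:49918167-49927540, plus strand, 11 exons), a protein with disulfide isomerase activity, was at 32.4, 39.4, 32.1, 29.7 and 32.3 CPM in the control libraries and at 33.6, 28.5, 30.0, 28.6 and 26.8 CPM in the HG libraries. The groups overlapped, and the log2 fold change of -0.17 had an interval from -0.36 to 0.02. MANF (chr3:51385047-51389397, plus strand, 4 exons), which binds HSPA5 and holds back nucleotide exchange, was at 75.4, 84.2, 68.5, 70.8 and 71.8 CPM in the control libraries and at 63.7, 51.8, 54.2, 52.7 and 50.7 CPM in the HG libraries. The MANF groups were apart, with a log2 fold change of -0.44 (95% interval -0.61 to -0.27) and a fold of 0.737. MG_2 was the highest control library and HG_1 the highest HG library for MANF, CRELD2, SIL1 and SDF2L1.

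**Figure D2:**
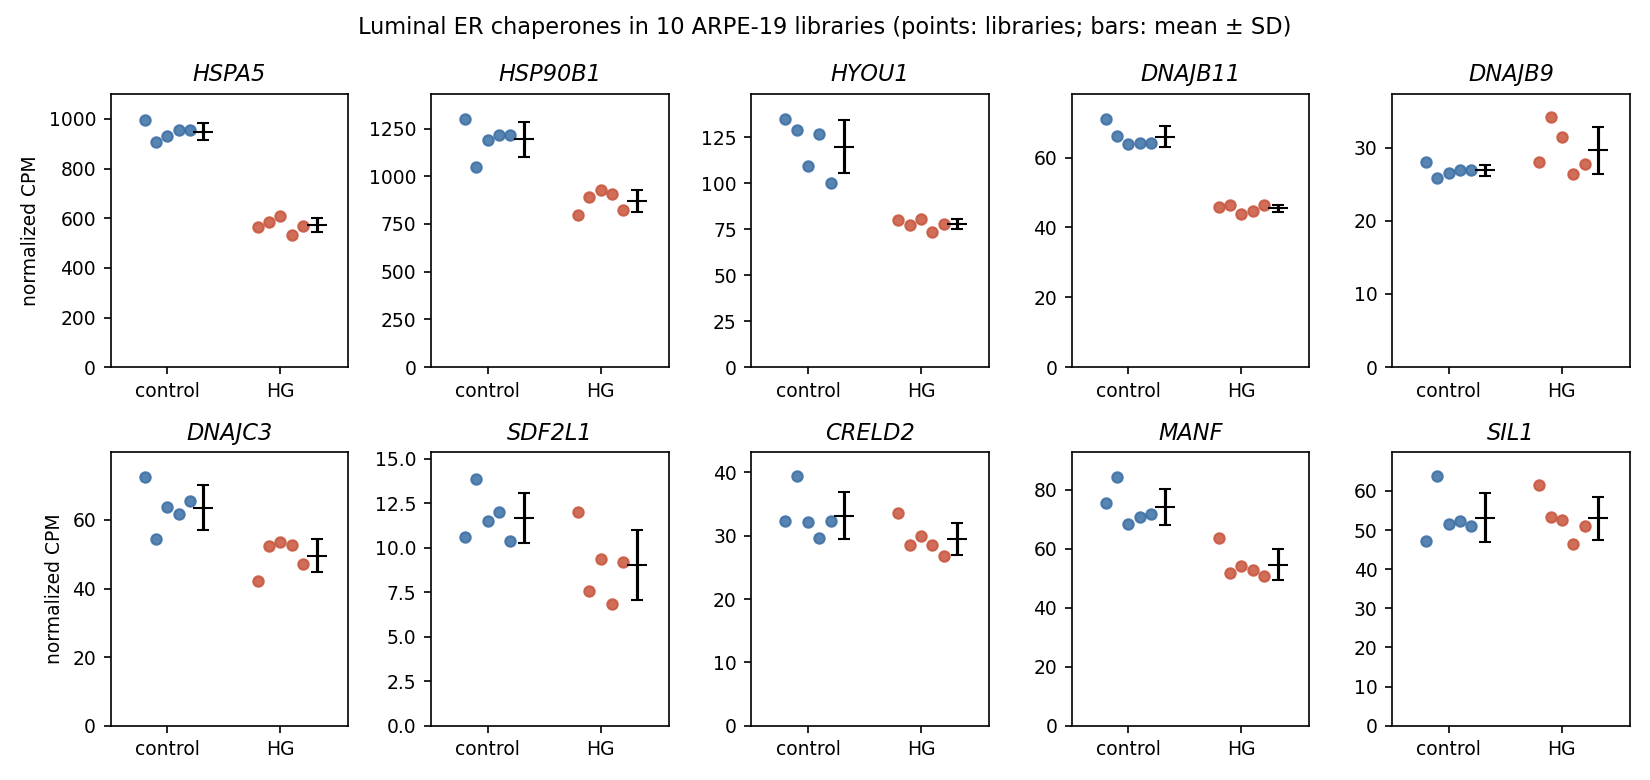
CPM of each of the 10 genes in every library, with 1 panel per gene, a y axis from 0 and the control (MG) and high glucose (HG) libraries side by side; points are single libraries and the bars mark the mean and SD (n = 5). HSPA5, HSP90B1, HYOU1, DNAJB11, DNAJC3 and MANF have no overlap between the groups, while DNAJB9, SDF2L1, CRELD2 and SIL1 do.

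**Figure D3:**
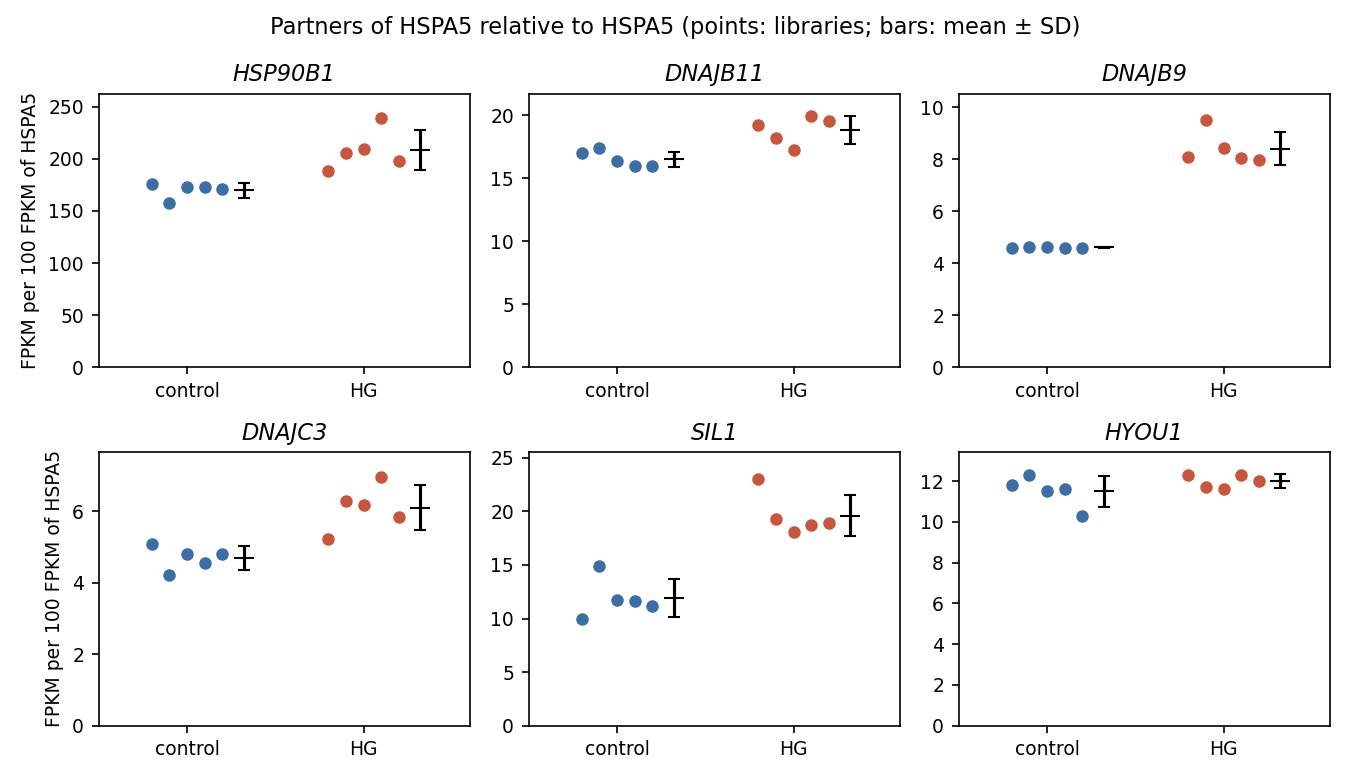
FPKM of partners per 100 FPKM of HSPA5 in each library of the control (MG) and high glucose (HG) groups, with bars for mean and SD (n = 5). DNAJB9 goes from 4.61 to 8.41 and SIL1 from 11.9 to 19.6, while HYOU1 stays at 11.5 and 12.0 with overlapping libraries.

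The libraries HG_1 and MG_2 stood apart from the others in base composition. In HG_1 and MG_2, log2 levels rose by 0.191 and 0.171 per 10 percentage points of transcript GC, whereas the slopes of the other 8 libraries lay between -0.0945 and -0.0055. Relative to the mean of their group, several transcripts rich in GC were high in both: SDF2L1 (65.5% GC) by 0.436 in HG_1 and 0.258 in MG_2, SIL1 (58.5% GC) by 0.223 and 0.271 and MANF (54.4% GC) by 0.228 and 0.187 on the log2 scale. HYOU1, at 55.2% GC, was at only 0.036 and 0.112. Among transcripts poor in GC, DNAJC3 (39.9% GC) stood at -0.231 and -0.217, and HSP90B1 (42.4% GC) at -0.126 and -0.183, while DNAJB9 (40.4% GC) was at -0.071 and -0.052, less low in HG_1 than in HG_4 (-0.159). HSPA5, at 46.0% GC, deviated by -0.018 and -0.062. With the trend on GC content and length removed, the log2 fold changes were -0.73 for HSPA5, -0.50 for HSP90B1 and for MANF, -0.42 for SDF2L1 and -0.18 for CRELD2, and the last 2 were then called, which made 8 members lower. Without HG_1 and MG_2 the values were -0.74 for HSPA5, -0.47 for HSP90B1, -0.45 for MANF, -0.43 for SDF2L1 and -0.15 for CRELD2, with 7 members lower.

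Whether members moved with HSPA5 inside a group was measured with log2 CPM centred on the group mean over the 10 libraries, which the choice of the list did not use. The test was exact, over all permutations within both groups, two-sided and adjusted over the 9 partners. By Pearson's r, 0 of 9 partners had an adjusted p under 0.05 and 1, DNAJB9, an unadjusted p under 0.05; by Spearman's rho, DNAJB9 passed after adjustment. DNAJB9 was closest to HSPA5, with r = 0.78 (permutation p = 0.0158, adjusted p = 0.142) and Spearman's rho = 0.84 (permutation p = 0.00222, adjusted p = 0.02). Its r was 0.66 without HG_3 and HG_4, the libraries farthest from the median of HSPA5, 0.82 with the GC and length trend removed (permutation, adjusted p = 0.358) and 0.78 without HG_1 and MG_2 (permutation, adjusted p = 0.43). Spearman's rho was not recomputed in these settings. HSP90B1 had r = 0.54 (permutation p = 0.121, adjusted p = 0.53) and rho = 0.60 (permutation p = 0.0931, adjusted p = 0.412). Its r was 0.89 without those libraries, 0.27 with the trend removed and 0.43 without HG_1 and MG_2. DNAJC3 had r = 0.50 (permutation p = 0.177, adjusted p = 0.53) and rho = 0.55 (permutation p = 0.137, adjusted p = 0.412), and its r was 0.85, 0.59 and 0.41 under the same changes. Left out singly, HG_4 and HG_2 changed the count: without HG_4, HSP90B1 (r = 0.95) and DNAJC3 (r = 0.90) passed, and without HG_2 DNAJB9 did (r = 0.96). The other 6 partners had r between -0.22 (CRELD2) and 0.30 (HYOU1). Among the partners themselves, HSP90B1 and DNAJC3 had r = 0.96 and CRELD2 and MANF r = 0.91, and with the GC and length trend removed these values were 0.70 and 0.72. Other pairs ran opposite: DNAJC3 had r = -0.86 with SIL1 and -0.81 with SDF2L1, and HSP90B1 r = -0.83 with SIL1, which were -0.40, -0.37 and -0.42 with the trend removed.

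Of the 5 members with an exact ERSE or ERSE-II, 3 were among the lower calls (HSPA5, HSP90B1, HYOU1), and of the 5 without an exact match, also 3 (DNAJB11, DNAJC3, MANF). The members were selected on these values, so nothing about the elements is read from these counts. Outside the list, 39 other genes held ERSE or ERSE-II in their RefSeq promoter, of which 31 had a row in the table and 24 were tested. This set follows from the promoter letters, although it was drawn up after the promoters of the members had been read. Of the 24, 4 were lower in the HG group (16.7%, against 7.8% of all rows), 0 were higher (7.62% of all rows) and 20 were not called, with a median log2 fold change of -0.04. CALR, the lectin chaperone calreticulin, fell by 0.51 on the log2 scale (SE 0.0765, edgeR adjusted p = 0.00142), from 1897.7 ± 144.1 to 1332.2 ± 139.1 CPM. XBP1, a transcription factor of the unfolded protein response, fell by 0.31 (SE 0.0667, edgeR adjusted p = 0.00999). SYNPO, an actin-binding protein, fell by 0.53 (SE 0.0682, edgeR adjusted p = 0.00066) and TRIM5, a restriction factor of retroviruses, by 0.25 (SE 0.0577, edgeR adjusted p = 0.0142). The disulfide isomerase PDIA6 at 0.01 (SE 0.0344), the lectin chaperone CANX at -0.12 (SE 0.0899) and HERPUD1, a factor of ER-associated degradation, at 0.02 (SE 0.0461) were not called. The genes not called ranged from -0.28 for RAD9A (SE 0.111) to 0.31 for FICD (SE 0.0953, edgeR adjusted p = 0.0519).

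The wider folding machinery was read from lists of pathway genes. These lists were written with earlier results of the same comparison known, so their counts are no independent evidence of a direction and are given beside the 7.8% lower and 7.62% higher of all rows. Among 26 other folding factors and J-domain proteins of the ER, some of them in its membrane (SEC63, DNAJB12, DNAJB14 and DNAJC18), 3 were lower, 0 higher and 23 not called, with a median log2 fold change of -0.029. The lower ones were SERPINH1, the collagen chaperone HSP47, at -0.42 (SE 0.0857, edgeR adjusted p = 0.00773), CRELD1, the paralogue of CRELD2, at -0.34 (SE 0.092, edgeR adjusted p = 0.0285), and the prolyl isomerase PPIC at -0.24 (SE 0.0581, edgeR adjusted p = 0.0176). HSPA13, another Hsp70-type protein of the ER, had means of 54.9 (control) and 54.8 CPM (HG) and was not called. SDF2, the paralogue of SDF2L1, was at 48.2 and 41.4 CPM and was not called (log2 fold change -0.22, SE 0.112). Of 8 lectin chaperones and glucosidases only CALR was lower, and 0 were higher.

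Among 16 protein disulfide isomerases and oxidation factors, 2 were lower and 2 higher. PDIA4, which forms complexes with HSPA5, was at -0.31 (SE 0.0477, edgeR adjusted p = 0.00174) and PDIA3, the partner of the lectin chaperones, at -0.21 (SE 0.043, edgeR adjusted p = 0.00769). ERO1A, the oxidase that recharges disulfide isomerases, was at 0.35 (SE 0.0631, edgeR adjusted p = 0.004) and the peroxiredoxin PRDX4 at 0.26 (SE 0.0672, edgeR adjusted p = 0.0241). Of 18 genes of ER translocation, 2 were lower (SEC61A2 and SPCS3, at -0.27 and -0.25) and 1 higher (SEC11A, 0.16), and of 20 genes of ER-associated degradation 2 were lower (SYVN1 and UBE2J1, both at -0.21) and 1 higher (UBE2G2, 0.12). KDELR2, of the receptors that return HSPA5 and other KDEL proteins from the Golgi, was at -0.18 (edgeR adjusted p = 0.0188), the only call among 3 receptors.

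Among 20 sensors and effectors of the unfolded protein response, 3 were lower and 5 higher. EIF2AK3, the PERK sensor, was at -0.39 (SE 0.105, edgeR adjusted p = 0.0282) and NFYB, a subunit of the CCAAT-binding factor NF-Y, at -0.20 (SE 0.0578, edgeR adjusted p = 0.0365), besides XBP1. ATF6 itself was at -0.03 (SE 0.0582) and ERN1, the IRE1 sensor, at 0.17 (SE 0.154), both not called. TRIB3, a pseudokinase induced by ATF4, was higher by 1.27 (SE 0.0932, edgeR adjusted p = 2.86e-05), DDIT3, the factor CHOP, by 0.78 (SE 0.144, edgeR adjusted p = 0.00441) and CREB3L1 by 0.60 (SE 0.0855, edgeR adjusted p = 0.00104). ATF4 and CEBPB were also higher. In the list of 16 amino acid stress targets of ATF4, 13 were higher and 1 lower, with a median log2 fold change of 0.576, where 7.62% of all rows were higher. ASNS rose from 23.2 ± 0.874 to 76.0 ± 3.57 CPM (edgeR adjusted p = 3.62e-08), PSAT1 from 71.6 ± 3.68 to 170.1 ± 2.06 (edgeR adjusted p = 1.02e-07) and CHAC1 from 1.11 ± 0.449 to 3.56 ± 1.06 (edgeR adjusted p = 0.00402). SLC7A5, an amino acid carrier, fell by 0.22 on the log2 scale (edgeR adjusted p = 0.00878).

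Hsp70 and Hsp90 relatives outside the ER were listed for comparison with HSPA5 and HSP90B1. The cytosolic list of 25 genes had 1 lower and 3 higher, with a median of -0.004. HSP90AB1 at 0.06 (SE 0.0327) and HSP90AA1 at -0.08 (SE 0.0776), the cytosolic Hsp90 proteins, were not called, nor were HSPA1A at -0.07 and HSPA1B at 0.07, whose sequences are nearly the same, so that the counting may divide reads between them. HSPA8, the constitutive cytosolic Hsp70, rose from 1863.4 ± 22.0 to 2056.4 ± 58.5 CPM (edgeR adjusted p = 0.0195), HSPA4L was higher by 0.33 (edgeR adjusted p = 0.0425) and BAG1 by 0.23 (edgeR adjusted p = 0.0382). DNAJA1, a cytosolic J-domain protein, fell by 0.27 (edgeR adjusted p = 0.00309). Among 10 mitochondrial genes, 3 were higher and 0 lower: HSPA9, the mitochondrial Hsp70, at 0.30 (edgeR adjusted p = 0.00146), HSPD1 at 0.17 (edgeR adjusted p = 0.0153) and the protease LONP1 at 0.50 (edgeR adjusted p = 0.00298). The counts of calls in these lists moved with the settings, from 16 lower and 28 higher over 162 distinct genes to 36 lower and 48 higher with 1 surrogate variable, and to 10 lower without MG_1, without MG_3 or without MG_4.

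**Figure D4:**
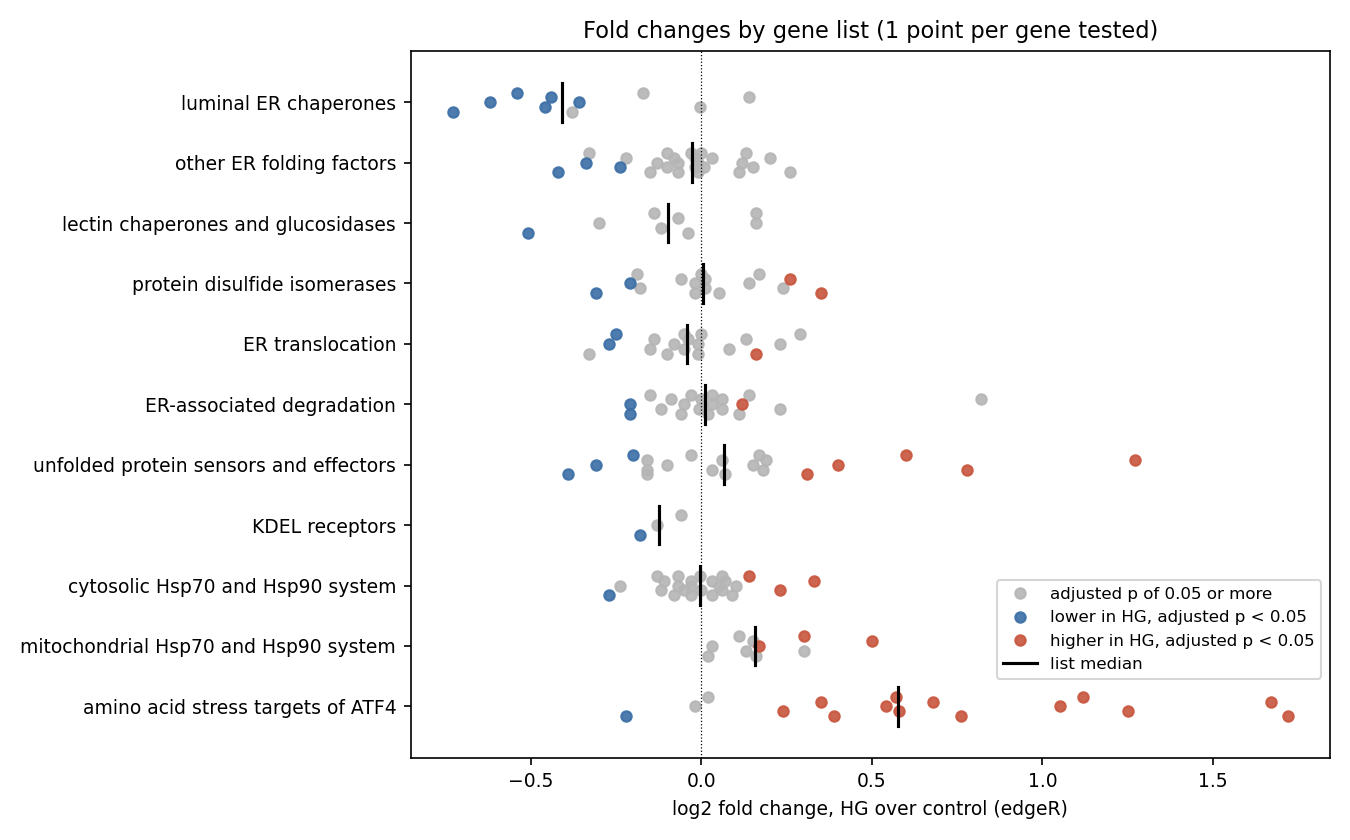
Log2 fold change, high glucose against control, of every gene of each list (points, 1 row per list), with the lower and the higher calls (edgeR adjusted p under 0.05) coloured. The members have 6 lower calls and 0 higher, and the targets of ATF4 have 1 lower and 13 higher.

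Some member loci share sequence with other genes. Read strand was not given in the sources used here, so reads of a gene on the opposite strand cannot be told apart where it overlaps a member. Of such genes, 5 had values: MATR3 opposite SIL1, PNPLA8 and THAP5 opposite DNAJB9, ALG12 opposite CRELD2 and TBCCD1 opposite DNAJB11. MATR3 was the most abundant, at 322.6 ± 37.6 CPM in control libraries against 53.2 ± 6.28 for SIL1, so the level of SIL1 and its ratios to HYOU1 and HSPA5 carry this uncertainty. PNPLA8 at 41.2 ± 2.74 and THAP5 at 21.1 ± 2.27 CPM stood beside DNAJB9 at 26.9 ± 0.767, and ALG12 at 30.9 ± 4.49 beside CRELD2 at 33.2 ± 3.67. TBCCD1, at 6.07 ± 0.709 CPM, was low beside DNAJB11 at 66.0 ± 3.07. None of these 5 was called, with log2 fold changes from -0.1 to 0.16. HSP90B1 is also overlapped by C12orf73 and TTC41P and HYOU1 by AP003392.3, all on the opposite strand and not analysed here, so both carry the same uncertainty. For DNAJB11, 15.35% of its 100-base windows also occur in AC068631.2, an overlapping gene annotated as protein-coding on the same strand, and for HSPA5 2.28% occur in other loci.

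The label of the cells was checked against marker genes. Of 9 RPE markers, 4 (RLBP1, MITF, OTX2 and PMEL) were at 1 CPM or more in every library, while the visual cycle enzyme RPE65 reached at most 0.135 CPM and TTR was at 0 throughout. BEST1 was uneven, at 0.577 to 551.5 CPM in the control libraries and 0.981 to 7.79 CPM in the HG libraries. CDH5, a cadherin of endothelium, and CD3E, a chain of the T cell receptor complex, were at 0 in every library. Of 4 markers of photoreceptors and neurons, 3 were under 1 CPM in every library, and TUBB3, a tubulin of neurons that many cultured lines express, was at 121.9 to 158.9 CPM (control) and 139.7 to 184.9 CPM (HG). KRT8, a keratin of epithelia, ranged over 1713.4 to 2087.5 CPM in control libraries and 1051.7 to 1500.5 in HG libraries, and CD68, a lysosomal protein of macrophages and other cells, over 54.5 to 81.1 and 101.6 to 143.4 CPM. The epithelial markers KRT18 (946.8 to 1200.4 and 586.6 to 814.8 CPM) and EZR (743.8 to 805.5 and 629.6 to 724.2 CPM) were likewise lower without overlap, and CDH1, the fourth epithelial marker, reached at most 0.18 CPM in control and 0.194 CPM in HG libraries. Among 4 fibroblast markers, COL1A1 ranged over 40.1 to 53.8 and 16.4 to 20.7 CPM and PDGFRB over 164.2 to 200.5 and 88.6 to 111.7 CPM, while VIM overlapped between the groups and COL1A2 was near 0. The RPE markers PMEL (3.35 to 4.35 and 1.92 to 2.62 CPM) and OTX2 (92.5 to 102.3 and 87.0 to 90.3 CPM) were also lower in the HG libraries without overlap. The part of these shifts in the values of HSPA5 and the other members was not tested. The libraries matched their labels in TXNIP, a gene induced by glucose, at 0.809 to 1.23 CPM in control libraries and 5.38 to 12.9 in HG libraries.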

How the data were processed

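ARPE-19 RNA of 5 control and 5 high glucose libraries was analysed from the 2 tables the authors deposited. The count table holds whole reads per gene without normalization, and the FPKM table holds values from the authors, scaled for the length of the transcript and the size of the library. The submitters' processing notes name fastp 0.20.1, HISAT2 2.2.1 and the build GRCh38; the counting program, annotation and strand setting are not given in the sources used here. Total counts were between 32448991 and 45864176 per library, and each pair of libraries within a group differed beyond sampling noise.

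From the counts, edgeR 4.0.16 in R 4.3.3 was used with its default filter (14936 of 22626 rows), TMM normalization, the quasi-likelihood test and Benjamini-Hochberg adjustment over all tested rows. A fold change is HG over control. Log2 CPM used a prior count of 2. Promoter sequences came from RefSeq on GRCh38.p14 and gene models from GENCODE 29. All 10 members matched both. Alternatives were DESeq2 1.42.0, RLE size factors, scaling by library size alone, a filter of 10 counts in every library, no filter on counts, limma 3.58.1 on log2(FPKM + 1) and log2(FPKM + 0.1), 1 surrogate variable from sva 3.50.0, removal of the trend that a library showed with GC content and transcript length (lowess, span 0.3, 13012 rows), the 2 libraries HG_1 and MG_2 left out, and each library left out in turn. The edgeR, DESeq2 and limma fits and the correction for the GC trend were tried on simulated counts, and the other steps were not.

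The members and lists were chosen with earlier results of these data known. Named genes are the 10 members, up to 3 genes per list and direction by size of log2 fold change, out of the genes called at an adjusted p under 0.05 with at least 1 CPM, the 5 genes most like HSPA5 with and without centring, and TXNIP; HSPA13, SDF2, ATF6, ERN1, HSP90AA1, HSP90AB1, HSPA1A, HSPA1B, ATF4, CEBPB, the genes that overlap members, the markers, the membrane proteins named in the ER list and the other genes with ERSE were added after their values were seen.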

Additional observations from a re-analysis of the deposited data

Results flagged for a closer look

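Among the 20 sets of 5 CPM values that the 10 genes give in both groups, 2 held a library set apart from the others, where chance alone gives about 1 in 20. CRELD2 was at 39.4 CPM in MG_2, against 29.7 to 32.4 CPM in the other 4 control libraries, a gap of 0.72 of the range. MANF was at 63.7 CPM in HG_1, against 50.7 to 54.2 CPM in the other HG libraries, a gap of 0.734 of the range. MG_2 and HG_1 are the libraries with the GC slopes of 0.171 and 0.191 log2 units per 10 percentage points. The part of base composition in these values was not tested. Without both libraries the log2 fold changes were -0.15 for CRELD2 and -0.45 for MANF.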

How the results depend on the processing

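All settings refit the libraries on which the members were selected, so their calls remain a description and carry no weight as a test. HSPA5, HSP90B1, HYOU1, DNAJB11 and MANF were lower with an adjusted p under 0.05 in all 10 other settings and with each library left out. Their log2 fold changes in the settings were -0.74 to -0.72, -0.50 to -0.43, -0.66 to -0.59, -0.57 to -0.52 and -0.50 to -0.43. DNAJC3 lost its call with limma on log2(FPKM + 1) (-0.31) and on log2(FPKM + 0.1) (-0.34), so that 5 members were lower there. SDF2L1 gained a call with the surrogate variable (-0.47), with the GC and length trend removed (-0.42), without HG_1 and MG_2 (-0.43) and without HG_1 alone (-0.50), and CRELD2 with the first 2 of these (-0.21 and -0.18); the count of lower members was then 8, 8, 7 and 7, and no setting gave a higher one. SIL1, near 0, took the other sign with library size alone (0.0075), log2(FPKM + 1) (0.0077), log2(FPKM + 0.1) (0.008) and without HG_1 and MG_2 (0.01), and ranged from -0.06 to 0.07 with single libraries left out.

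Over the pathway lists, the lower calls numbered 36 with 1 surrogate variable, 35 with the trend removed, 33 without HG_1 and MG_2, and 10 to 23 with single libraries left out, against 16. The higher calls numbered 48, 38 and 43 in the same settings and 21 to 31 with single libraries left out, against 28. When single libraries were left out, between 0 and 2 partners had an adjusted p under 0.05 for Pearson's r with HSPA5 within groups. The r of DNAJB9 then lay between 0.66 and 0.96. The r of SDF2L1 was -0.24 with library size alone and -0.26 with log2(FPKM + 1). Without HG_1 and MG_2, r was 0.49 for SDF2L1, 0.52 for HYOU1, 0.36 for CRELD2, 0.54 for MANF and 0.40 for SIL1. With the trend removed it was -0.05 for DNAJB11 and 0.13 for SIL1. With single libraries left out it ranged from 0.07 to 0.52 for HYOU1, -0.26 to 0.63 for DNAJB11 and -0.57 to 0.21 for SDF2L1. The range was -0.39 to 0.11 for CRELD2, -0.32 to 0.12 for MANF and -0.72 to 0.14 for SIL1. The cause of these shifts was not tested. No paired analysis was made, since the labels do not pair control libraries with high glucose libraries. Of the members, SDF2L1 had the lowest counts and the largest SE (0.148).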

Other observations

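Outside the folding lists, the genes whose levels ran most like HSPA5 over the 10 libraries, among 9638 named genes with a mean of at least 10 CPM, were LBH and SPARC (Pearson's r = 0.988 each), MEST (0.987), and MXRA7 and COL4A2 (0.986 each). These values hold the difference between the groups, and all 5 were lower in the HG group, with log2 fold changes of -1.03 for LBH, -0.62 for SPARC, -0.54 for MEST, -0.31 for MXRA7 and -0.81 for COL4A2. SPARC and COL4A2 encode a matrix-associated glycoprotein and a chain of basement membrane collagen, and both are made in the ER. With each group centred on its own mean, other genes came first: TBL1X (r = 0.939), C8orf33 (0.933), NRG1 (0.919), and FAM133B and GAS7 (0.914 each). Of these, NRG1 at -0.36 (edgeR adjusted p = 0.00599) and GAS7 at -0.51 (edgeR adjusted p = 0.000311) were lower in the HG group. These lists were read from the top of a ranking, so the correlations carry no test.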
